A study of Homo sapiens with 12 samples.

Results

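Matrix metalloproteinases (MMPs) and their tissue inhibitors (TIMPs) were followed in ARPE-19, a long-established cell line derived from human retinal pigment epithelium (RPE). The 10 genes MMP1, MMP2, MMP3, MMP14, MMP15, MMP24, TIMP1, TIMP2, TIMP3 and TIMP4 were taken by symbol from a table of read counts, out of 40591 lines that carry a gene symbol. All 10 were found once each. Of these, 7 had enough reads to be tested, and MMP1, MMP3 and TIMP4 had almost none.

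MMPs are zinc-dependent proteases that cut collagens, laminins and other proteins of the extracellular matrix. They are made as inactive proenzymes, and TIMPs stop the active enzymes by binding their catalytic site. A pair of them works together at the cell surface, where MMP14, an enzyme anchored in the membrane, uses TIMP2 as a bridge to capture and activate pro-MMP2, the main gelatinase of many tissues. The RPE lies on Bruch's membrane, a layered sheet of matrix, and deposits TIMP3 into it. Mutations of TIMP3 cause Sorsby fundus dystrophy, an inherited macular disease.

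Poly(A) RNA was sequenced from 12 libraries in 4 groups of 3, which the labels name WT, GFP, GSTA4 and OSK. Per the labels the cells were stable lines taken 4 days into expression of an open reading frame (ORF). GFP carried the fluorescent protein, GSTA4 carried glutathione S-transferase alpha 4, an enzyme that conjugates the lipid aldehyde 4-hydroxynonenal, and OSK carried the reprogramming factors OCT4 (POU5F1), SOX2 and KLF4. For WT no ORF is given. All groups share the ARPE-19 background. The labels do not say whether a line was 1 clone or a pool, which promoter drove the ORF or whether replicate libraries stem from separate cultures. The p-values therefore measure the spread between these libraries, which may be technical, and an ORF cannot be told apart from other differences between the lines.

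The shallowest library, GFP replicate 1, held 12630675 counts and the deepest, WT replicate 3, held 17045454. Levels are given as CPM, counts scaled to a common library size with TMM factors. The limit set by a count of 0 is 3 reads, or 0.177 to 0.227 CPM depending on the library. Each ORF gene was high in its own group: GSTA4 lay between 396 and 430.3 CPM there and at or below 22.5 CPM elsewhere, and POU5F1, SOX2 and KLF4 lay between 622 and 948 CPM in OSK and at or below 2.67 CPM elsewhere. WT replicate 1 stood apart from the other WT libraries, with a chi-square per degree of freedom of 14.5 and 16.9 across genes against 2.52 to 6.82 for the other pairs of replicates. In GFP replicate 1 27349 named genes were hit by a read, and in the rest 19488 to 22073. Of the markers that define RPE, MITF, OTX2 and PMEL were expressed in all groups (group means of 101 to 356 CPM), BEST1 was at 2.85 to 8.63 CPM and RLBP1 at 0.691 to 5.23 CPM, while RPE65, the visual cycle isomerase, was near the floor at 0.0229 to 0.494 CPM. The RNA is bulk, so fewer cells of a type and less RNA per cell cannot be told apart.

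In GSTA4 against GFP, 5 of the 7 tested genes were past an adjusted p of 0.05 in edgeR's quasi-likelihood test, where 29.2% of all 15179 tested genes were. TIMP1 was the 1 gene that rose (14.7% of all tested genes did), and MMP2, MMP14, MMP24 and TIMP3 fell (14.6% did). In OSK against GFP 5 of 7 were also past it, against 45.9% of all tested genes. TIMP1 was again the 1 that rose (23.1%), while MMP2, MMP14, MMP15 and TIMP3 fell (22.8%). Both comparisons use the same GFP libraries. The 10 genes were picked with earlier results of these data known, so these counts describe them and are not a test of the group. The median log2 fold change of the 7 was -0.40 in GSTA4 and -0.26 in OSK, beside 0.01 and -0.02 for all tested genes.

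The 2 groups' libraries did not overlap for 5 of the 7 genes in GSTA4 against GFP, beside 42.3% of all tested genes, and for 6 of 7 in OSK against GFP, beside 54.7%.

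**Figure D1:**
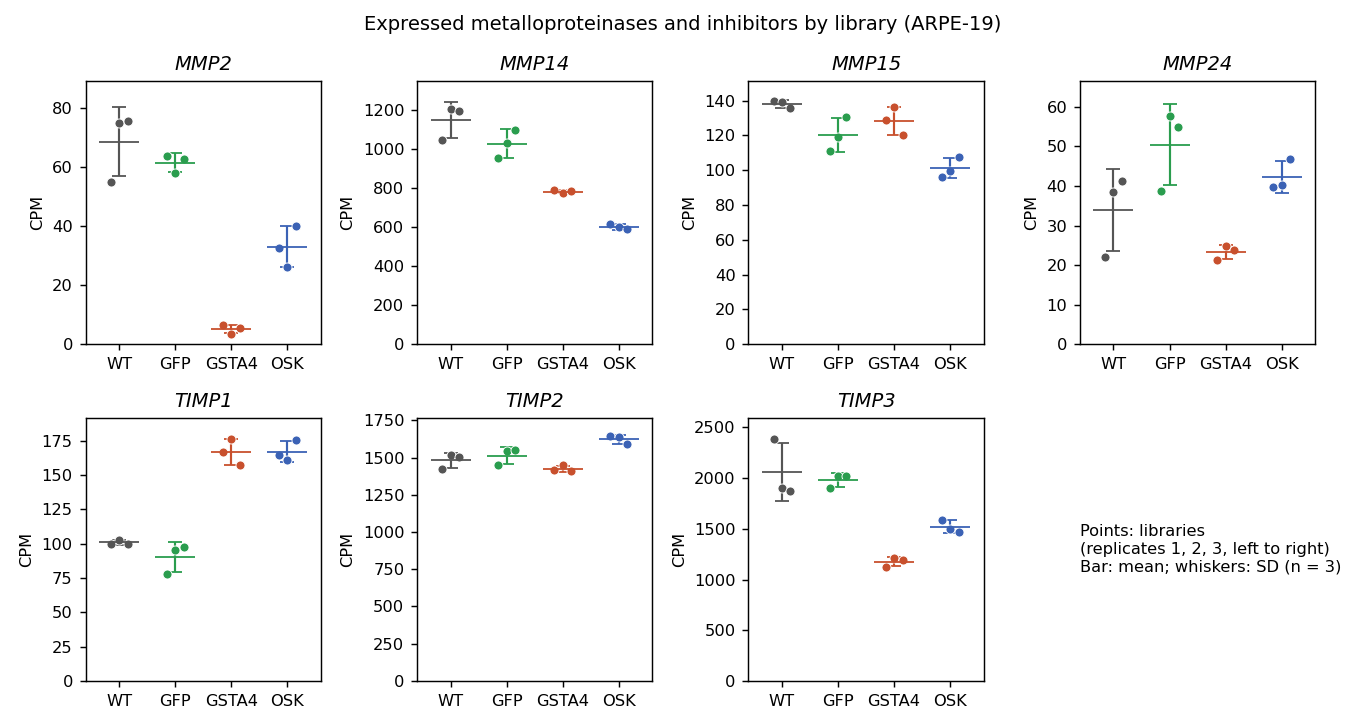
Level of each of the 7 expressed genes in the 12 libraries, in CPM on a linear axis from 0; points are libraries, the bar is the mean and the whiskers the SD over n = 3. MMP2 is lowest in the 3 GSTA4 libraries (3.52 to 6.35 CPM), and TIMP1 is highest in the 6 GSTA4 and OSK libraries (157 to 176 CPM).

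The promoters of 3 genes are shown because TIMP1 rose, and TIMP3 and MMP14 fell, in both GSTA4 and OSK. They are the 250 bases before the start of the gene in RefSeq on GRCh38.p14, all on the plus strand: chr14:22836335-22836584 for MMP14, chrX:47582186-47582435 for TIMP1 and chr22:32801455-32801704 for TIMP3. Of the 10 genes, 6 matched the RefSeq promoter table. MMP2 also fell in both GSTA4 and OSK, but it was not matched, nor were MMP1, MMP3 and TIMP2. Capitals mark matches, on either strand, to the AP-1 variant TGAGTAA or the GC box GGGCGG, which do not overlap each other here.
MMP14: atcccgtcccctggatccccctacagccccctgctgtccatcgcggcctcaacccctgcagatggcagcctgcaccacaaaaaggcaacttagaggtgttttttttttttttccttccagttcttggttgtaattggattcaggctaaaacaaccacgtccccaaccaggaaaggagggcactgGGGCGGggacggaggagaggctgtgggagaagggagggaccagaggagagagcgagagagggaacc
TIMP1: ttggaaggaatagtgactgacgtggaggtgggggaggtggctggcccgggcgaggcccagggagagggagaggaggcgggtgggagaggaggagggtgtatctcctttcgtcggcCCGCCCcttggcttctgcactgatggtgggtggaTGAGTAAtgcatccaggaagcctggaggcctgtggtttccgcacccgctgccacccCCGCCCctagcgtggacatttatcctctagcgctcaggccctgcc
TIMP3: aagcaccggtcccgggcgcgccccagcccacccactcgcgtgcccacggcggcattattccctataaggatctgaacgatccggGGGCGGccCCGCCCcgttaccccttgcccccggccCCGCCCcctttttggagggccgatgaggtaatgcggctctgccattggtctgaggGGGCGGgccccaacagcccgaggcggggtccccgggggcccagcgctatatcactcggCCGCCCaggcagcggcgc
The search covered both strands of 35116 promoters of the same length. The AP-1 consensus TGAGTCA occurred in 4.2% of them and its variant TGAGTAA in 2.21%. The GC box GGGCGG occurred in 42.6% and the TATA box TATAAA in 10.7%. TIMP1 held TGAGTAA from -101 to -95 before the RefSeq start and a GC box at -135 to -130 and at -45 to -40. The GENCODE release 29 start of TIMP1 (47582313) lies upstream of the RefSeq start, so the TGAGTAA match and the nearer GC box fall inside the gene as GENCODE places it. The GENCODE starts of MMP14 and TIMP3 also lie within the bases shown, closer to their ends than any match. TIMP3 held 5 GC boxes and MMP14 held 1, from -66 to -61. None of the 6 matched promoters held the AP-1 consensus or the TATA box. The GC content was 56.8% for MMP14, 64.8% for TIMP1 and 72.4% for TIMP3, beside a median of 58% over all promoters, and the CpG counts were 7, 12 and 26 beside a median of 11. A match describes the letters and is not a measured site.

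MMP2, the gelatinase (chr16:55389700-55506691, plus strand), was the gene of the 10 with the largest differences. Its level was 55.1, 74.8 and 75.7 CPM in the WT libraries and 63.8, 58.0 and 62.6 CPM in the GFP libraries. In the GSTA4 libraries it was 6.35, 3.52 and 5.57 CPM, on 100, 47 and 81 reads. In OSK it was 32.6, 26.2 and 40.1 CPM. The GSTA4 libraries lay below the OSK libraries, and the OSK libraries below all GFP and WT libraries, with no overlap. Against GFP the log2 fold change was -3.56 in GSTA4 (SE 0.176, edgeR adjusted p 3.5e-12), which puts GFP 11.8-fold higher. By size this change was number 56 among the 15179 tested genes. Against GFP OSK differed by -0.90 (SE 0.141, adjusted p 2.26e-05). OSK was 6.32-fold higher than GSTA4, a log2 difference of 2.66 (SE 0.182, adjusted p 1.3e-10). WT and GFP did not differ past the threshold (-0.15, 95% interval -0.43 to 0.13, adjusted p 0.45), nor without WT replicate 1, where the difference was -0.30 (adjusted p 0.0732). GSTA4 was lower against WT too, at -3.72. MMP2 shares no exon bases with an antisense gene of the GENCODE release 29 annotation, and its antisense neighbour MMP2-AS1 had 3 reads in the GFP libraries together and 0 in the other groups. It shares 174 exon bases with AC007336.3 on its own strand, whose reads were not analysed here.

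MMP14 (chr14:22836557-22849027, plus strand), the membrane-bound collagenase that activates pro-MMP2, was lower in GSTA4 than in GFP and lower again in OSK. The WT libraries had 1045, 1208 and 1198 CPM and the GFP libraries 955, 1034 and 1099.5 CPM. The GSTA4 libraries had 789.8, 775 and 784 CPM and the OSK libraries 618, 601 and 589 CPM. WT and GFP overlapped each other, whereas all GSTA4 libraries lay below both and all OSK libraries lay below GSTA4. The log2 fold change against GFP was -0.40 in GSTA4 (SE 0.0655, edgeR adjusted p 1e-04) and -0.77 in OSK (SE 0.0659, adjusted p 5.3e-09). OSK was lower than GSTA4 by -0.38 (SE 0.0657, adjusted p 6.88e-05). GFP against WT gave -0.16 (adjusted p 0.089), and without WT replicate 1 it gave -0.23 (adjusted p 0.00882). This difference came past the threshold in 4 of 19 alternatives. The others were without GFP replicate 3 (edgeR adjusted p 0.0393), library size alone (edgeR adjusted p 0.0455) and DESeq2 (adjusted p 0.0468).

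MMP15 (chr16:58025566-58046901, plus strand), a second membrane-type enzyme, differed less. It had 139.8, 139 and 136 CPM in WT, 111, 119 and 131 CPM in GFP, 129, 136 and 120.3 CPM in GSTA4 and 96.1, 99.8 and 107 CPM in OSK. The OSK libraries were below all the others, while the GSTA4 libraries overlapped both WT and GFP. Relative to GFP MMP15 fell in OSK (-0.25, SE 0.0677, edgeR adjusted p 0.00425) and was lower in OSK than in GSTA4 (-0.34, adjusted p 0.00025). In GSTA4 against GFP the difference was 0.09 with a 95% interval of -0.05 to 0.23 (adjusted p 0.345), and 0.04 without GFP replicate 1 (adjusted p 0.744). GFP was lower than WT by -0.20 (adjusted p 0.0403), a call that was lost when any WT library, GFP replicate 1, GFP replicate 2 or OSK replicate 2 was left out (adjusted p of 0.0534 to 0.154). It was also lost with only the 2 groups in the edgeR fit (adjusted p 0.0836).

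MMP24 (chr20:35226654-35277000, plus strand), a membrane-type enzyme best known from neurons, was lowest in GSTA4. The WT libraries had 21.9, 38.5 and 41.3 CPM and the GFP libraries 38.7, 57.8 and 55.0 CPM. GSTA4 had 21.3, 24.8 and 23.9 CPM, and OSK 39.7, 40.2 and 46.9 CPM. GSTA4 lay below all GFP and OSK libraries, and WT replicate 1 lay inside the GSTA4 range. MMP24 fell in GSTA4 against GFP by 1.12 on the log2 scale (SE 0.172, edgeR adjusted p 4.51e-05) and was higher in OSK than in GSTA4 by 0.86 (SE 0.173, adjusted p 0.000334). Between OSK and GFP the difference was -0.26 with a 95% interval of -0.60 to 0.08 (adjusted p 0.208), and without WT replicate 1 in the fit it was -0.26 with an adjusted p of 0.0405. It was -0.42 without GFP replicate 1 (adjusted p 0.0533) and -0.15 without GFP replicate 2 (adjusted p 0.554). GFP was higher than WT by 0.58 (adjusted p 0.0166) although the libraries overlapped, and by 0.34 without WT replicate 1 (adjusted p 0.0451). That call was lost without GFP replicate 2 (0.47, adjusted p 0.0944) and without GFP replicate 3 (0.51, adjusted p 0.065). It was also lost with DESeq2 (adjusted p 0.0702) and with only the 2 groups in the edgeR fit (adjusted p 0.0558). MMP24OS, a gene on the other strand, shares 799 exon bases with MMP24, and AL121753.2 shares 162. The strand setting of the counting is not given in the sources used here, so reads of the genes cannot be told apart in those stretches. MMP24OS had 61.1, 73.9, 69.5 and 80.4 CPM on average in WT, GFP, GSTA4 and OSK, and its GSTA4 against GFP difference was -0.09 (adjusted p 0.535).

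MMP1, the interstitial collagenase (chr11:102789920-102798160, minus strand), and MMP3, stromelysin (chr11:102835801-102843803, minus strand), lie in a cluster of MMP genes on chromosome 11. MMP1 had 1 read in each of WT replicate 1 and GFP replicates 1 and 3, and 0 reads in the other libraries. MMP3 had 2 reads in GFP replicate 1 and 1 read in GSTA4 replicate 3. Every value was at or under the floor of 3 reads, so a difference between the groups was not detectable at this depth and no fold is given. The rest of the cluster was as low: MMP7 and MMP10 had 0 reads in all 12 libraries, and MMP8, MMP12, MMP13, MMP20 and MMP27 had at most 3 reads in any library. Genes on either side were expressed, such as YAP1, a transcriptional coactivator of the Hippo pathway, with group means of 93.9 to 119.7 CPM, and PDGFD, a growth factor. PDGFD averaged 132 CPM in the GFP libraries, 58.0 CPM in the GSTA4 libraries, 106 CPM in OSK and 152 CPM in WT. It fell by 1.19 on the log2 scale between GSTA4 and GFP (SE 0.0641, edgeR adjusted p 1.25e-11). Of 22 listed genes in and around the cluster, 9 were tested. In GSTA4 against GFP 1 rose and 3 fell, where 29.2% of all tested genes were past the threshold, and in OSK 1 rose and 4 fell, where 45.9% were.

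TIMP1 (chrX:47582313-47586789, plus strand), a secreted inhibitor of most soluble MMPs, was the gene of the 10 that rose in both lines. The WT libraries had 99.7, 103 and 99.96 CPM and the GFP libraries 78, 95.4 and 97.8 CPM. The GSTA4 libraries had 166, 176 and 157 CPM, and the OSK libraries 164, 161 and 175 CPM. All 6 GSTA4 and OSK libraries lay above all 6 WT and GFP libraries. The log2 fold change against GFP was 0.88 in GSTA4 (SE 0.0734, edgeR adjusted p 1.03e-08) and 0.88 in OSK (SE 0.0734, adjusted p 3.93e-09), that is 1.84-fold in each. Between OSK and GSTA4 the difference was 0.00 on the log2 scale with a 95% interval of -0.15 to 0.15 (adjusted p 0.981). Its sign changed with the scaling and with single libraries. Against WT the rises were 0.72 and 0.73. TIMP1 lies inside SYN1 on the other strand with 0 shared exon bases, and SYN1 had group means at or below 0.254 CPM.

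TIMP2 (chr17:78852977-78925387, minus strand), the partner of MMP14 in the capture of pro-MMP2, held the narrowest range of the 7. The WT libraries had 1423, 1514 and 1506 CPM and the GFP libraries 1448, 1542 and 1552.5 CPM. GSTA4 had 1414, 1449 and 1409 CPM, and OSK 1648, 1636 and 1589.8 CPM. The OSK libraries were above all others, and the rest overlapped. TIMP2 did not pass the threshold in GSTA4 against GFP (-0.09, 95% interval -0.21 to 0.03, edgeR adjusted p 0.25) or in OSK against GFP (0.10, 95% interval -0.02 to 0.22, adjusted p 0.154). With DESeq2 the OSK difference of 0.11 had an adjusted p of 0.0412, and with library size alone it was 0.03 (edgeR adjusted p 0.652). OSK was higher than GSTA4 by 0.19 (SE 0.0561, edgeR adjusted p 0.00803). TIMP2 shares 198 exon bases with CEP295NL on the same strand, a gene with group means of 2.29 to 6.62 CPM, and 367 with the antisense AC022966.1, whose reads were not analysed here.

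TIMP3 (chr22:32801701-32863043, plus strand), the inhibitor that stays bound to the matrix, fell in both lines. Its level was 2386, 1907 and 1878 CPM in WT and 1906, 2023 and 2023 CPM in GFP. It was 1126, 1209 and 1191 CPM in GSTA4 and 1590.05, 1499 and 1469 CPM in OSK. The GSTA4 libraries were the lowest, the OSK libraries next, and neither overlapped GFP or WT, whose highest value was WT replicate 1. The log2 fold change against GFP was -0.76 in GSTA4 (SE 0.077, edgeR adjusted p 1.91e-07) and -0.39 in OSK (SE 0.0766, adjusted p 0.000316). OSK was higher than GSTA4 by 0.37 (SE 0.0767, adjusted p 0.00043). GFP against WT was -0.05 (adjusted p 0.688) and 0.07 without WT replicate 1 (adjusted p 0.509). Without that library the GSTA4 and OSK differences from WT went from -0.81 to -0.69 and from -0.44 to -0.32, both still past the threshold. TIMP3 lies inside SYN3 on the other strand with 0 shared exon bases, and SYN3 had group means at or below 1.48 CPM.

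TIMP4 (chr3:12153051-12159351, minus strand), known mainly from heart and vessels, had 2, 0 and 0 reads in WT, 6, 0 and 0 in GFP, 0 in each GSTA4 library and 4, 3 and 9 in OSK. OSK was the group with reads in all 3 libraries, at a mean of 0.369 CPM ± 0.233 (SD, n = 3). TIMP4 did not pass the filter on low counts. In an unfiltered fit OSK against GSTA4, the group with 0 reads, had an edgeR adjusted p of 0.0218. OSK against GFP had one of 0.518 and OSK against WT one of 0.208. TIMP4 counts in OSK lay near the floor of 3 reads. TIMP4 shares 170 exon bases with SYN2 on the other strand, which had 4, 17, 13 and 5 reads in WT, GFP, GSTA4 and OSK.

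**Figure D2:**
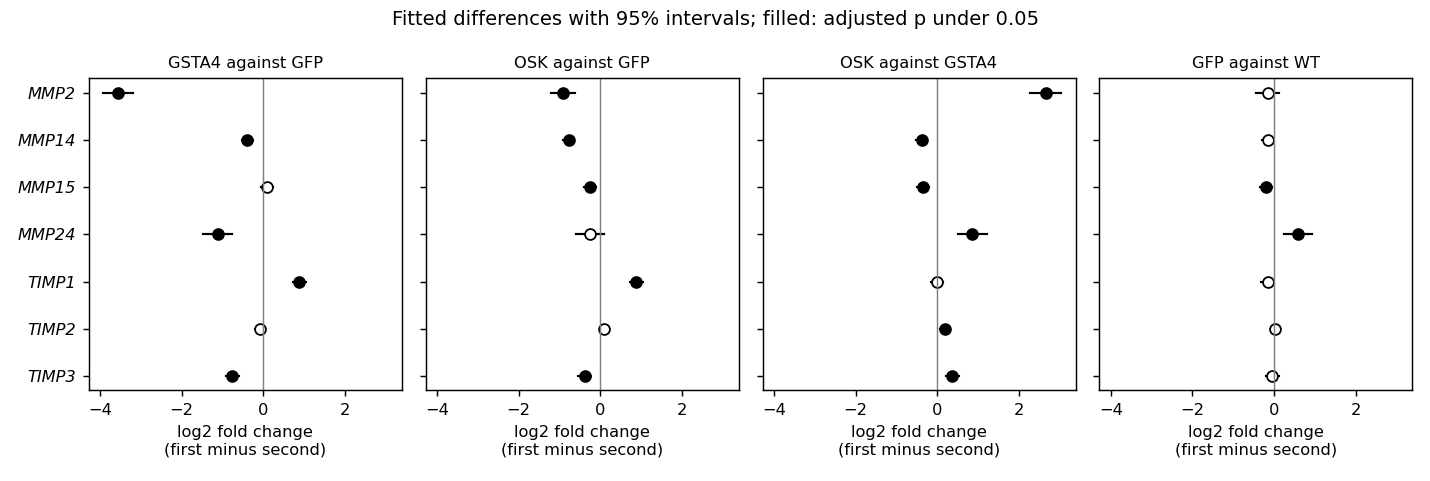
Fitted log2 fold changes of the 7 tested genes in 4 comparisons, with 95% intervals as lines; filled points have an edgeR adjusted p under 0.05. MMP2 stands furthest from 0 in GSTA4 against GFP (-3.56) and OSK against GSTA4 (2.66), and TIMP1 lies at 0.88 in both comparisons with GFP and at 0.00 in OSK against GSTA4.

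The lines were also compared with each other and with WT. In OSK against GSTA4, 6 of the 7 genes were past the threshold, where 47.8% of all tested genes were. MMP2, MMP24, TIMP2 and TIMP3 were higher in OSK (24.1% of all tested genes were) and MMP14 and MMP15 lower (23.8%). In GFP against WT, 2 of 7 were past it, beside 22.2% of all tested genes, with MMP24 higher (11%) and MMP15 lower (11.2%), and neither call held in every alternative. TIMP1 was lower in all GFP libraries than in any WT library, at a log2 difference of -0.16 that was not past the threshold (adjusted p 0.143) and was -0.06 without GFP replicate 1 (adjusted p 0.542). Against WT the counts were 5 of 7 in GSTA4 (38.6% of all tested genes) and 5 of 7 in OSK (45.4%). They held the same 5 genes as the comparisons with GFP: TIMP1 rose in both (19.7% and 22.7%) and the other 4 genes fell (19% and 22.7%). For MMP24 in GSTA4 against WT (-0.54, adjusted p 0.0187) the libraries overlapped, and the call was lost without WT replicate 2, WT replicate 3 or GSTA4 replicate 1 (adjusted p of 0.0779 to 0.129). With DESeq2 the call was lost too (adjusted p 0.0616). An F test over the 4 groups was past the threshold for 7 of 7 genes, against 66.9% of all tested genes, from an adjusted p of 1.28e-12 for MMP2 to 0.0327 for TIMP2. It was past it for 6 of 7 with library size alone and when any GSTA4 library, OSK replicate 1 or OSK replicate 2 was left out. Libraries did not overlap for 6 of 7 genes in OSK against GSTA4 (58% of all tested genes), 2 of 7 in GFP against WT (34.6%), 4 of 7 in GSTA4 against WT (49%) and 6 of 7 in OSK against WT (53.5%).

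**Figure D3:**
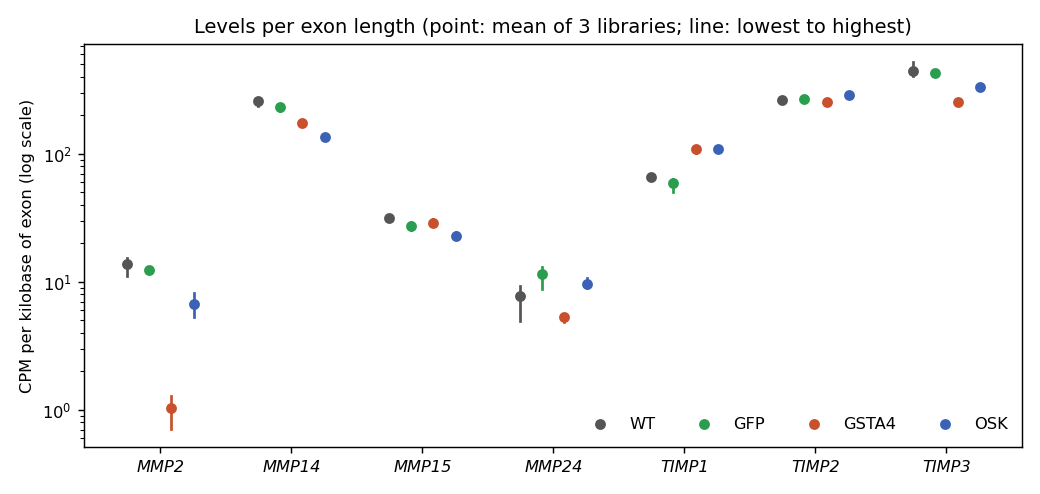
Mean CPM per kilobase of exon of the 7 tested genes by group, on a log axis; lines run from the lowest to the highest of 3 libraries. TIMP3, TIMP2 and MMP14 are the highest in all 4 groups, and MMP2 has 12.5 in GFP and 1.04 in GSTA4.

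Levels of different genes were set side by side per kilobase of exon, from GENCODE release 29. In GFP the order was TIMP3 (431), TIMP2 (269), MMP14 (231), TIMP1 (58.7), MMP15 (27.2), MMP2 (12.5) and MMP24 (11.4 CPM per kilobase), and the libraries of MMP2 (11.8 to 12.9) and MMP24 (8.77 to 13.1) overlapped. WT had the same order, with TIMP2 at 263 and MMP14 at 258 CPM per kilobase and overlapping libraries. In GSTA4 TIMP3 came down to 255 and TIMP2 stood at 253 CPM per kilobase, and their libraries overlapped. MMP2 was last in GSTA4 at 1.04 CPM per kilobase, below MMP24 at 5.29. In OSK MMP24 (9.58) was also above MMP2 (6.69), without overlap of their libraries. TIMP1 rose to 108 CPM per kilobase in both GSTA4 and OSK, and MMP14 came down to 135 in OSK. These orders carry no test.

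Ratios of an enzyme to an inhibitor within a library do not depend on how the libraries are scaled, and their level holds the unequal lengths of the genes, so only differences between groups are read. The log2 ratio of MMP2 to TIMP2 reads was -4.62 ± 0.115 in GFP, -4.45 ± 0.211 in WT, -8.14 ± 0.462 in GSTA4 and -5.64 ± 0.326 in OSK (SD, n = 3). Relative to GFP it was thus 11.5-fold lower in GSTA4 and 2.03-fold lower in OSK, with no overlap of libraries. The ratio of MMP14 to TIMP2 was -0.86 ± 0.0341 in GSTA4 and -1.43 ± 0.0156 in OSK, beside -0.56 ± 0.0534 for GFP and -0.37 ± 0.067 for WT, again without overlap. The ratio of MMP14 to TIMP3 went different ways, from -0.95 ± 0.0612 in GFP to -0.59 ± 0.0663 in GSTA4 and to -1.33 ± 0.0254 in OSK. In WT that ratio was -1.19 in replicate 1 and -0.66 and -0.65 in the others, so the WT libraries lay on both sides of the GFP range. No test was made of the ratios.

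**Figure D4:**
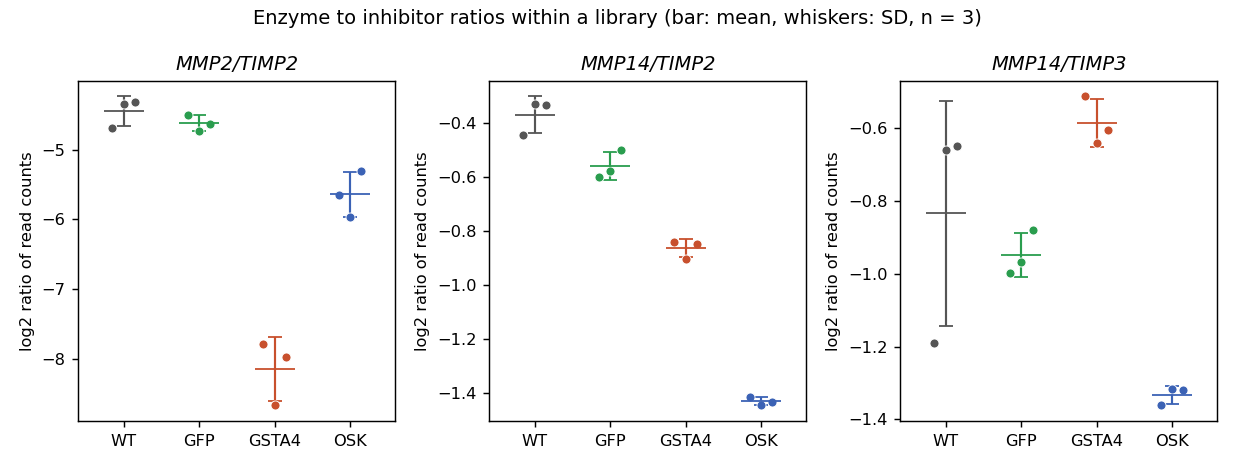
Log2 ratio of read counts of an enzyme to an inhibitor in each library; points are libraries, the bar is the mean and the whiskers the SD over n = 3. The axes do not start at 0 and differ between panels; MMP14/TIMP3 lies at -0.64 to -0.51 in GSTA4 and at -1.36 to -1.32 in OSK, on either side of the GFP libraries.

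Genes with the most similar pattern were found as those with the smallest root mean square difference of centred log2 CPM over the 12 libraries, among 13694 genes. For MMP2 they were MFAP4, a microfibril protein (0.401), SLAMF7 (0.404) and NIPAL4 (0.448). SLAMF7 averaged 9.88 CPM in the GSTA4 libraries and 83.1, 95.2 and 37.0 CPM in GFP, WT and OSK. For MMP14 they were EPS8L2 (0.086), EFNB3 (0.0869) and ATP6V1B2 (0.0966), and for TIMP1 they were EML2 (0.124), IFITM3 (0.126) and MALSU1 (0.147). For TIMP3 they were SP4 (0.0981), CDR2 (0.103) and TFRC, the transferrin receptor (0.113). For MMP24 they were TCF7 (0.186), TXNIP (0.187) and LTBP3 (0.192). MMP15 was closest to TP73-AS1 (0.0681), NAP1L1 (0.07) and VAT1 (0.0707), and TIMP2 to OSBP (0.0351), AP1G1 (0.0361) and PRKDC (0.0372). These last values are set beside each gene's own spread about its mean, 0.181 for MMP15 and 0.0769 for TIMP2, against 1.53 for MMP2. None of the 10 genes was among these lists for another.

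Among the other 17 MMP genes, 6 were tested. In GSTA4 against GFP MMP11 was the 1 past the threshold, beside 29.2% of all tested genes. In OSK 2 rose and 2 fell against GFP, beside 45.9%. MMP11, a stromelysin of stromal cells, had 26.4, 34.1 and 32.4 CPM in GFP, 16.4, 16.8 and 22.1 CPM in GSTA4 and 13.4, 10.2 and 8.997 CPM in OSK. On the log2 scale it fell by 0.75 in GSTA4 (SE 0.16, edgeR adjusted p 0.00128) and by 1.52 in OSK (SE 0.169, adjusted p 2.86e-07), with no overlap with GFP. MMP28, epilysin, had 5.45, 4.72 and 5.09 CPM in GFP and 13.3, 19.4 and 20.9 CPM in OSK, a rise of 1.81 (adjusted p 8.06e-08). MMP17, a membrane-type enzyme, rose in OSK from 6, 4 and 2 reads to 51, 39 and 33 reads. MMP25, named here after its values were seen, fell in OSK by 1.25 on the log2 scale (adjusted p 0.00823), from 35, 30 and 30 reads to 22, 14 and 6. MMP9, the other gelatinase, had 8 reads in GFP replicate 1 and at most 2 in any other group together.

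TIMP3 also inhibits some proteins of the ADAM and ADAMTS families, relatives of the MMPs. The genes of these families were mixed. Of 21 tested, 3 rose and 6 fell in GSTA4 against GFP, where 14.7% of all tested genes rose and 14.6% fell. In OSK 6 rose and 7 fell against GFP, where 23.1% and 22.8% of all tested genes did. In GSTA4 ADAM9 rose from 357 to 585 CPM (log2 fold change 0.71, edgeR adjusted p 1.66e-08) and ADAM15 by 0.54 (adjusted p 9.28e-06), while ADAMTS3, which processes procollagens, fell by 1.41 (adjusted p 2.14e-07). In OSK ADAM15 rose from 178 to 661 CPM (1.89, adjusted p 2.44e-14) and ADAMTS9 from 6.82 to 53.5 CPM (2.97, adjusted p 2.54e-13), and ADAMTS7 fell by 1.22 (adjusted p 3.12e-11).

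Genes that activate MMPs or handle them at the cell surface gave 2 rises and 7 falls among 20 tested in GSTA4 (14.7% and 14.6% of all tested genes), and 9 rises and 5 falls in OSK (23.1% and 22.8%), against GFP. In GSTA4 the falls included TFPI2, a matrix-bound inhibitor of serine proteases (220 to 79.3 CPM, log2 fold change -1.47, edgeR adjusted p 3.12e-12), and THBS1, a matrix glycoprotein that binds pro-MMP2 (607 to 235 CPM, -1.37, adjusted p 4.58e-09). In OSK CD44, a hyaluronan receptor that binds MMP14, rose from 114 to 377 CPM (1.72, adjusted p 8.56e-14) and PLAUR, the urokinase receptor, from 4.59 to 24.7 CPM (2.42, adjusted p 3.39e-11). The difference between OSK and GSTA4 was 1.73 for TFPI2 (adjusted p 4.44e-14) and 1.80 for CD44 (adjusted p 2.63e-14).

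Transcription factors and cytokines known to act on MMP and TIMP genes were also counted. Of 26 tested, 11 rose and 5 fell in GSTA4 against GFP, beside 14.7% and 14.6% of all tested genes. In OSK 8 rose and 7 fell, near the shares of all tested genes (23.1% and 22.8%). JUNB, an AP-1 subunit, fell in GSTA4 from 187 to 42.6 CPM (log2 fold change -2.14, edgeR adjusted p 1.75e-14), whereas EGR1 rose from 6.64 to 66.6 CPM (3.32, adjusted p 3.5e-12) and TGFB2, a cytokine of the TGF-beta family, rose by 1.12 (adjusted p 4.78e-10). In OSK FOSL2, a partner of the JUN proteins in AP-1, rose by 1.65 (adjusted p 2.64e-13), and ETS2 and JUN fell by 1.22 and 1.44 (adjusted p 5.38e-12 and 1.17e-11). JUN was higher in GSTA4 than in GFP by 0.77 (adjusted p 1.72e-07), and OSK was lower than GSTA4 by -2.21 (adjusted p 6.99e-15).

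Matrix proteins, the substrates of these enzymes, gave 3 rises and 11 falls among 22 tested in GSTA4 (14.7% and 14.6% of all tested genes), and 9 rises and 8 falls in OSK (23.1% and 22.8%), against GFP. In GSTA4 COL1A1, a chain of fibrillar collagen, fell from 82.4 to 4.53 CPM (log2 fold change -4.19, edgeR adjusted p 2.97e-12). EFEMP1, a fibulin made by RPE, fell by 1.30 (adjusted p 1.17e-09) and COL18A1, the precursor of endostatin, by 0.92 (adjusted p 1.07e-07). In OSK COL1A1 fell by 1.98 (adjusted p 3.87e-09), while COL5A2 and LAMA4 rose by 1.88 and 2.00 (adjusted p 1.17e-11 and 1.55e-11). In OSK against GSTA4, 13 of these genes were higher (24.1% of all tested genes) and 5 lower (23.8%). EFEMP1 had the lowest adjusted p of them (737 CPM in GSTA4 and 3354 CPM in OSK, 2.19, adjusted p 1.24e-13), and the log2 differences of LAMA4 (2.38) and COL5A1 (2.61) were larger.

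**Figure D5:**
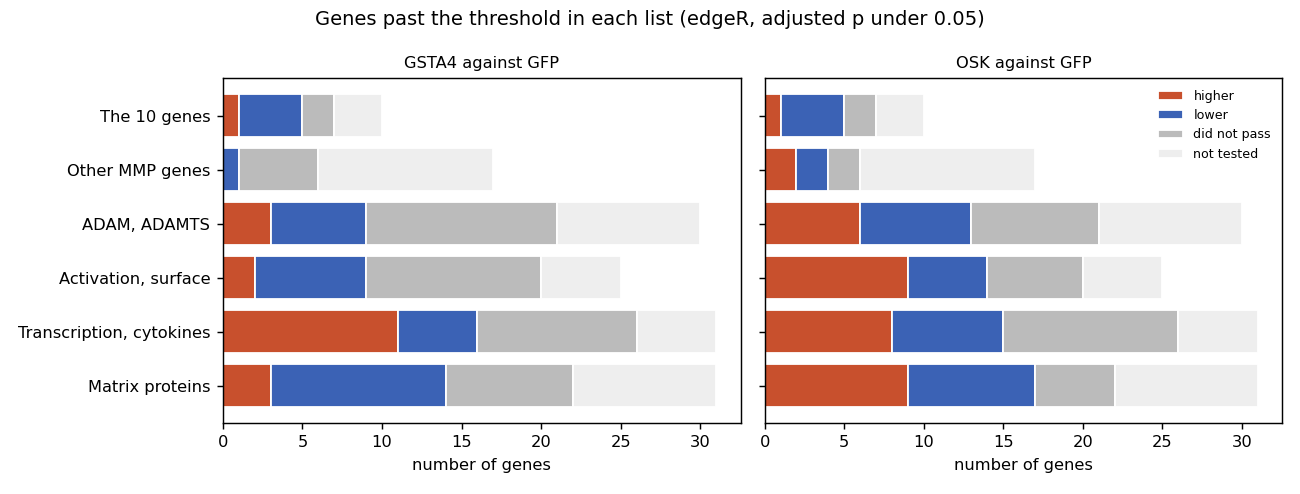
Number of genes in each list that were higher, lower, not past the threshold or not tested in GSTA4 against GFP and in OSK against GFP (edgeR, adjusted p under 0.05). Among matrix proteins 11 fell and 3 rose in GSTA4, and 8 fell and 9 rose in OSK; of all tested genes 14.6% fell and 14.7% rose in GSTA4, and 22.8% fell and 23.1% rose in OSK.

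Other measured quantities moved with the groups. The summed level of the 18 RPE markers was 1577 to 1649 CPM in GSTA4 and 1402 to 1470.0 CPM in OSK, beside 2186 to 2525 CPM for GFP and 2420 to 2660.0 CPM for WT. KRT8 and KRT18, keratins of simple epithelia, weigh heavily in that sum: KRT8 averaged 1246, 841, 678 and 501 CPM over WT, GFP, GSTA4 and OSK. The other markers did not all follow it. Of the 13 tested, 1 was higher and 8 were lower in GSTA4 than in GFP (14.7% and 14.6% of all tested genes). In OSK against GFP 1 was higher and 11 were lower (23.1% and 22.8%). But 9 were higher and 2 lower in GFP than in WT (11% and 11.2%). Relative to WT 4 were higher and 6 lower in GSTA4 (19.7% and 19%). In OSK against WT 3 were higher and 5 lower (22.7% and 22.7%). Of these markers 2 to 4 were at or under the floor in each group. The 12 fibroblast or mesenchymal markers summed to 1236 to 1396 CPM in GSTA4 and 810.5 to 835 CPM in OSK, beside 1255 to 1366 CPM for GFP and 1148 to 1293 CPM for WT, with LUM at 0 reads in all libraries. That sum is mostly VIM and PDGFRB, and its members went both ways in GSTA4 against GFP. Of 5 tested, 3 were higher and 2 lower (14.7% and 14.6% of all tested genes). Their log2 differences ran from -4.19 for COL1A1 to 0.63 for TWIST1. In OSK against GFP 4 of the 5 were lower (22.8% of all tested genes). Blood markers summed to 1.82 CPM or less in every library. Mitochondrially encoded genes took 7.55% to 7.82% of the named reads in GSTA4 and 6.81% to 6.89% in OSK, beside 6.05% to 6.54% for GFP and 5.99% to 6.06% for WT. The part of these quantities in the differences of the MMP and TIMP genes was not tested.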

How the data were processed

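The authors deposited 1 table of raw read counts per gene for 12 libraries. The submitters' processing notes name STAR 2.7.1a and featureCounts 1.6.2, with human (GRCh38, hg38) and mouse (GRCm38, mm10) builds. Annotation release, strand setting and filters are not given in the sources used here. Lines without a symbol (20014 of 60605, 0.485% to 0.822% of reads) were left out. filterByExpr kept 15179 genes, and all 12 libraries entered 1 fit (R 4.3.3, edgeR 4.0.16, limma 3.58.1) with TMM scaling, a mean per group, 8 residual and a median of 12.05 prior degrees of freedom. Tests were two-sided, with Benjamini-Hochberg adjustment over all tested genes and a threshold of 0.05. SE is the log2 fold change over the root of F. Floors cover counting error only. Ratios had 0.5 added to each count. The planned ratios with MMP1 or MMP3 were not computed, since both genes were at or under the floor.

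Positions and exon lengths come from GENCODE release 29 on GRCh38, matched by symbol, which may not be the release used for counting. Promoters come from RefSeq on GRCh38.p14. The code was tested on simulated counts. Members and lists were chosen with earlier results of these data known. The text names the members, up to 3 genes of each other list per comparison (lowest adjusted p, past the threshold, mean of at least 1 CPM), genes around or overlapping members, and the 3 closest patterns. A gene that this rule selects is not reported here. The counts were also tested with DESeq2 1.42.0, with a replicate block, within only the groups compared, with other scalings (RLE, or library size by itself), with other filters (none, or 1 CPM on average) and with each library left out.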

Additional observations from a re-analysis of the deposited data

How the results depend on the processing

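Of 798 member values under the alternatives, 762 kept their direction and their side of the threshold, 15 lost it, 17 gained it and 4 changed sign. In GSTA4 against GFP every tested member kept its call under every alternative run. The sign changes were TIMP3 in GFP against WT and TIMP1 in OSK against GSTA4, none of them past the threshold. With 1 library left out the log2 difference of TIMP3 ran from -0.1149 (without WT replicate 3) to 0.06555 (without WT replicate 1). That of TIMP1 ran from -0.03752 (without GSTA4 replicate 3) to 0.04319 (without GSTA4 replicate 2), with -0.02305 without OSK replicate 3, and was -0.06083 with library size alone. In GFP against WT the number of members past the threshold was 2, fell to 0 with only the 2 groups compared, and ran from 0 to 2 with 1 library left out. It was 0 without GFP replicate 2 and 1 without WT replicate 2, WT replicate 3, GFP replicate 1 or OSK replicate 2. It stayed at 2 without WT replicate 1, without GFP replicate 3 and with DESeq2. In these runs MMP14 came past the threshold while MMP15 or MMP24 dropped out. With library size alone the number was 3, as MMP14 joined them. The cause was not tested. MMP24 in OSK against GFP was past the threshold with no filter (adjusted p 0.0445), with only the 2 groups (0.0446) and without WT replicate 1 (0.0405). With library size alone, 39.8% of all calls in OSK against GFP were higher, where TMM gave 50.4%, 42.5% rather than 50.3% in OSK against GSTA4 and 41.1% rather than 50.1% in OSK against WT. Same-numbered libraries of different groups deviated together weakly at most (r of -0.02 to 0.14 over 18 pairs, 1 of them over 0.1). Pairs with different numbers had r of -0.0853 to 0.0695 over 36 pairs. The highest values were those of WT replicate 1 with replicate 1 of GFP (0.138), GSTA4 (0.0979) and OSK (0.0878). The labels do not say that a number marks a shared culture or day, so the main fit did not pair samples. With a replicate block the members past the threshold numbered 5, 5, 2, 6 and 5 in GSTA4 and OSK against GFP, GFP against WT, OSK against GSTA4 and GSTA4 against WT. In OSK against WT they numbered 7 rather than 5, as MMP24 (0.35, adjusted p 0.0144) and TIMP2 (0.13, adjusted p 0.0364) came past it. In the main edgeR fit these differences were 0.32 (adjusted p 0.13) and 0.13 (adjusted p 0.059). Of 19 alternatives, MMP24 came past the threshold there in 3 and TIMP2 in 6. For TIMP2 these included RLE scaling (adjusted p 0.0422) and DESeq2 (adjusted p 0.00715), and for MMP24 no filter (adjusted p 0.00565). Depth limits MMP1, MMP3 and TIMP4.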
